A study of Zea mays with 24 samples.

Results

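The ZmICE1a mutant was set against wild type in endosperm, the storage tissue of the maize (Zea mays) kernel, in 3 mutant and 3 wild type libraries. These 6 of the 24 libraries of the series were chosen by their titles, which name the genotype, and by the matching genotype field. Per the labels' protocols, RNA was taken at 15 days after pollination from 5 to 10 endosperms pooled for each library, and the libraries were of the MP3RNA-seq type, in which reads come from the 3' end of each transcript. Both genotypes carried the treatment label control. The sources used here do not give the mutant allele, the inbred background or whether replicates came from separate plants. The p-values therefore cover the spread among the libraries at hand, and that spread may be technical. Of the other libraries, 12 belong to an experiment with jasmonic acid (JA) and are used below for comparison, and 6 belong to an experiment with indole-3-acetic acid and are not used here.

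ICE1 is a basic helix-loop-helix transcription factor known from Arabidopsis, where it acts upstream of the CBF genes in the response to cold. At mid filling the maize endosperm is known for making starch and zein storage proteins, with an aleurone layer at its surface and a transfer layer at its base that takes up sugars. JA is a plant hormone of wounding and defence. The title of the series sets the question as a balance between defence and storage.

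The deposited counts list features by identifier only. None of the 44146 nuclear gene models was found in the RefSeq gene table (assembly Zm-B73-REFERENCE-NAM-5.0), so 21 lists of starch, storage protein, hormone, defence and cold genes had 0 matched members. Nuclear genes are therefore given by identifier, without a name or a role, and at most 2 in each direction are shown for a set. For the same reason the level of ZmICE1a itself and the markers of endosperm cell types were not analysed here, and the labels have no check from the targeted gene. The organelle features were all found in the table (365 of 365), though some had no gene name there. Of the 154 microRNA precursors 153 were found.

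Total counts were 4565269, 4875478 and 4392280 in wild type and 3109928, 3516136 and 3943038 in the mutant, so the mutant libraries were all shallower. Features with a count numbered 27147 to 27819 in wild type and 25895 to 26969 in the mutant. After thinning to the smallest library they numbered 26060 to 26301 and 25895 to 26272, with overlapping groups (exact permutation test, 2-sided, p = 0.6). The median absolute log2 difference between libraries was 0.122 to 0.126 within wild type, 0.133 to 0.142 within the mutant and 0.162 to 0.184 between the groups.

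The mutant differed from wild type in many genes, mostly by small amounts and in both directions. By edgeR's quasi-likelihood test with Benjamini-Hochberg adjustment, 576 features were higher and 528 lower in the mutant among 17841 tested, which is 3.23% and 2.96%, or 6.19% in all. Called here means an adjusted p under 0.05. The absolute log2 fold change of the called features had a median of 0.47 and quartiles of 0.31 and 0.74. It was under 0.5 for 608 of them, while 92 were higher and 82 lower by at least 1. At least 2 on the log2 scale was reached by 20 higher and 16 lower features. The groups did not overlap for 1081 of the 1104 called features, against 12.3% (mutant higher) and 11.6% (mutant lower) of all features tested. With DESeq2 the calls were 301 higher and 236 lower.

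Calls followed the level of expression. Tested features were put into 5 equal bins by level, given as CPM, which scales counts to library size. In the lowest bin (median 3.61 CPM) 1.88% were called, and their absolute log2 fold change had a median of 1.46. In the middle bin (median 16.6 CPM) 4.34% were called, with a median of 0.64. In the highest bin (median 76.9 CPM) 15.9% were called, with a median of 0.31. More counts per gene thus went with more calls of smaller size, as the plot of fold change against level shows.

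**Figure D1:**
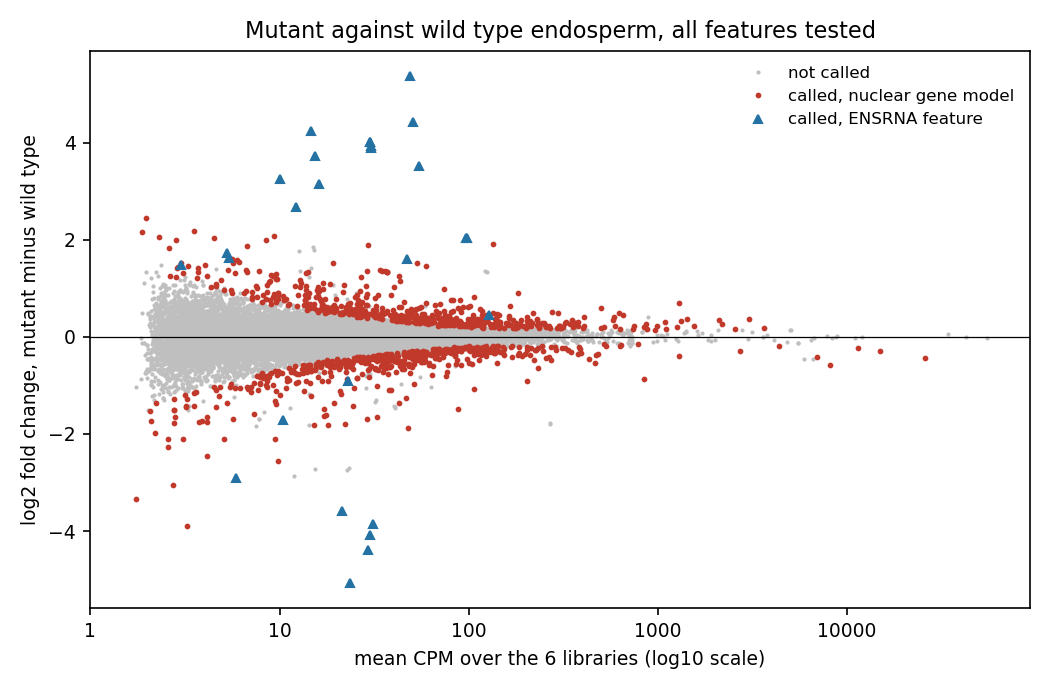
Log2 fold change (mutant minus wild type) of each tested feature against its mean level in CPM on a log axis, with called nuclear genes in red and called ENSRNA features as blue triangles. The 576 higher and 528 lower features lie on both sides of 0, and small changes are called mostly at high level.

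Among nuclear genes with at least 10 CPM in 1 group and groups that did not overlap, 513 were called higher and 473 lower. Genes were named from this set by fold change, so the rule required the lack of overlap in those shown. Zm00001d020949 stood at 2.23, 4.93 and 3.51 CPM in wild type and at 19.7, 10.7 and 15.3 CPM in the mutant. Each mutant library was above every wild type library, by a log2 fold change of 2.07 ± 0.27 (SE; n = 3 against 3; edgeR adjusted p = 4.55e-05). Zm00001d041436 stood at 3.56, 3.70 and 2.81 CPM in wild type and at 13.6, 15.5 and 11.7 CPM in the mutant. The groups were again apart, with a log2 fold change of 2.00 ± 0.23 (edgeR adjusted p = 6.86e-06).

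The same rule gave the genes that fell most. Zm00001d041300 stood at 17.6, 17.9 and 14.7 CPM in wild type and at 2.59, 2.54 and 3.31 CPM in the mutant. The mutant libraries were all low and close to each other, and the log2 fold change was -2.55 ± 0.22 (edgeR adjusted p = 2.42e-07). Zm00001d040153 stood at 17.6, 10.7 and 17.6 CPM in wild type and at 4.85, 3.38 and 2.55 CPM in the mutant. The groups did not overlap, with a log2 fold change of -2.10 ± 0.27 (edgeR adjusted p = 2.93e-05).

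**Figure D2:**
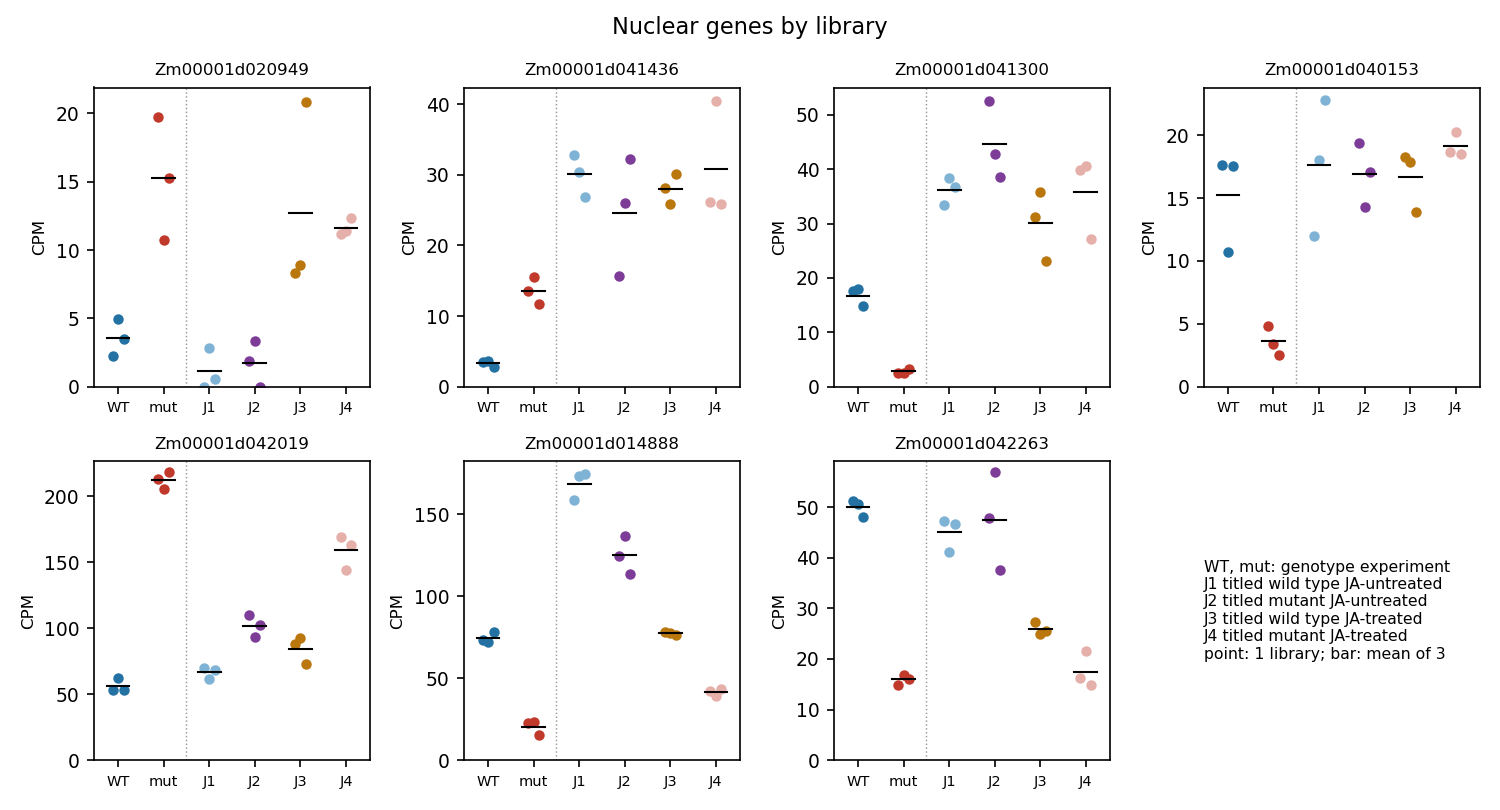
Level in CPM, on linear axes from 0, of 7 nuclear genes in wild type (WT) and mutant (mut) and, right of the dotted line, in the 4 JA experiment groups (J1 titled wild type untreated, J2 titled mutant untreated, J3 titled wild type treated, J4 titled mutant treated), with 1 point per library and a bar at the mean of 3. The rule that chose the genes required the 3 mutant points to lie all above or all below the 3 wild type points. Levels left and right of the line were scaled separately.

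No gene well above the detection limit was present in all libraries of 1 genotype and absent from the other. Counts in all 3 wild type libraries and none in the mutant were found for 174 features, and the reverse for 47, and the highest sum over the libraries among these was 23 counts. The mutant libraries were shallower, and the part of depth in the unequal numbers was not tested.

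Most of the most abundant transcripts moved by small amounts, though some were called. The 50 features of highest mean level, all nuclear, took 37.9% ± 0.772 (SD, n = 3) of counts in wild type and 36.4% ± 0.567 in the mutant. The exact permutation test gave p = 0.1, the smallest that 3 against 3 allows. Of the 50, 7 were called higher and 7 lower, or 28% called, beside 15.9% in the highest bin of level. DESeq2 called 9 higher and 4 lower, and without mutant replicate 2 edgeR called 4 and 5. Their log2 fold changes ran from -0.58 to 0.37 with a median of -0.004, and 37 were under 0.2 in size.

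The most abundant feature called lower, Zm00001d019156, stood at 29045, 28493 and 31990 CPM in wild type and at 22918, 20626 and 22502 CPM in the mutant. The mutant libraries were all below wild type, with a log2 fold change of -0.44 ± 0.05 (edgeR adjusted p = 4.82e-06). Zm00001d048849 stood at 17368, 15486 and 16626 CPM in wild type and 14009, 13087 and 13270 CPM in the mutant, also with no overlap (-0.29 ± 0.04, edgeR adjusted p = 0.000268). Of those called higher, Zm00001d041822 stood at 2581, 2679 and 2738 CPM in wild type and 3454, 3414 and 3367 CPM in the mutant (0.36 ± 0.04, edgeR adjusted p = 6.46e-06). Zm00001d030855 stood at 3544, 3172 and 3475 CPM in wild type and 3867, 3824 and 3851 CPM in the mutant. Its groups were apart by 0.18 ± 0.04 on the log2 scale (edgeR adjusted p = 0.0159), and the call was lost when any 1 mutant library was left out (largest adjusted p = 0.0747).

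Several of the 50 had neighbouring identifiers. A run of 5 features over 8 identifier numbers, which holds Zm00001d019156, took 6.19% ± 0.661 of the scaled library in wild type and 4.50% ± 0.415 in the mutant. All 5 were lower in fitted value and 3 were called lower. A run of 6 with Zm00001d048849 took 4.85% ± 0.181 and 4.21% ± 0.146, again with 6 lower fitted values and 3 called lower. A run of 8 over 9 numbers took 4.19% ± 0.0983 and 4.27% ± 0.129, with 1 called higher and 0 called lower. Of the 7 called lower among the 50, 6 lay in these runs. Members of a run may be near-identical copies, and the sources used here do not say how reads matching several copies were counted, so the values of single members are uncertain.

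**Figure D3:**
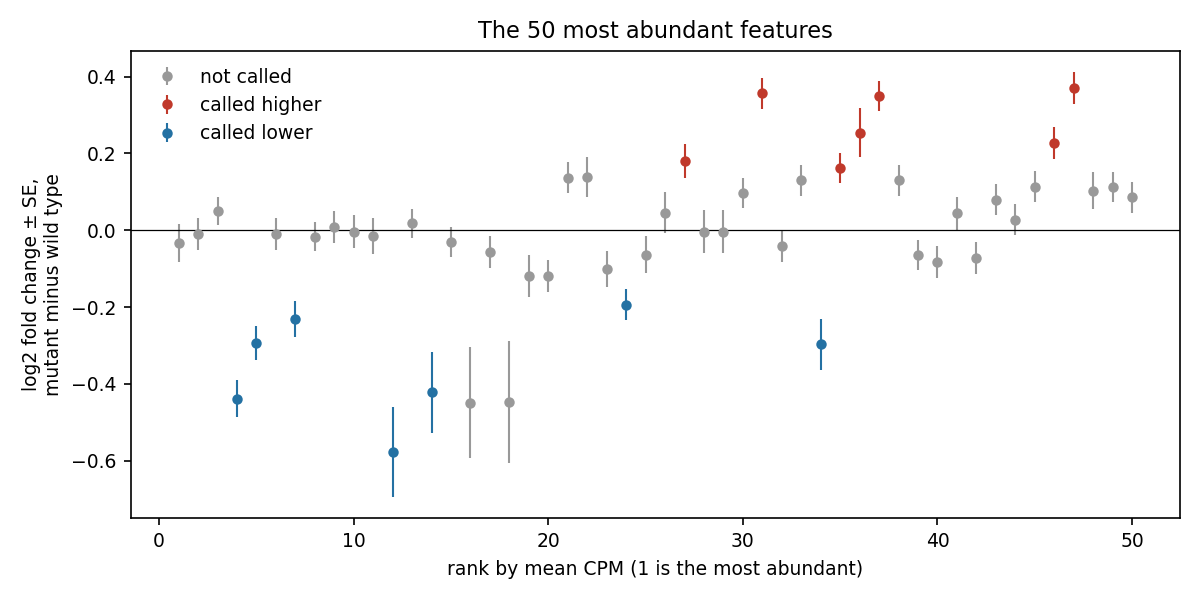
Log2 fold change (mutant minus wild type) with its SE for the 50 most abundant features in order of mean level. Values lie between -0.58 and 0.37, with 7 called higher, 7 called lower and 36 not called.

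Calls were uneven over the identifiers. Of the tested genes whose identifiers begin Zm00001d040, 041 or 042, a span picked with the calls known and so given as a description, 168 of 925 were called (18.2%, 78 higher and 90 lower). Among the other nuclear gene models 909 of 16612 were called (5.47%). The median absolute log2 fold change of the called genes was 0.75 in the span and 0.42 outside it. A change of at least 1 was seen in 59 of the called genes of the span (35.1%) and 90 of those outside (9.9%). Grouped by the same 3 leading digits, the 51 other groups with at least 100 tested genes had 2.11% to 11.2% called. The highest of these, 043 (44 of 393), lies next to the span. On the other side of the span, 039 had 8.2% (31 of 378). Zm00001d041436, Zm00001d041300 and Zm00001d040153 all lie in the span, as do Zm00001d041822, Zm00001d042019 and Zm00001d042263. Genome coordinates were not used here.

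**Figure D4:**
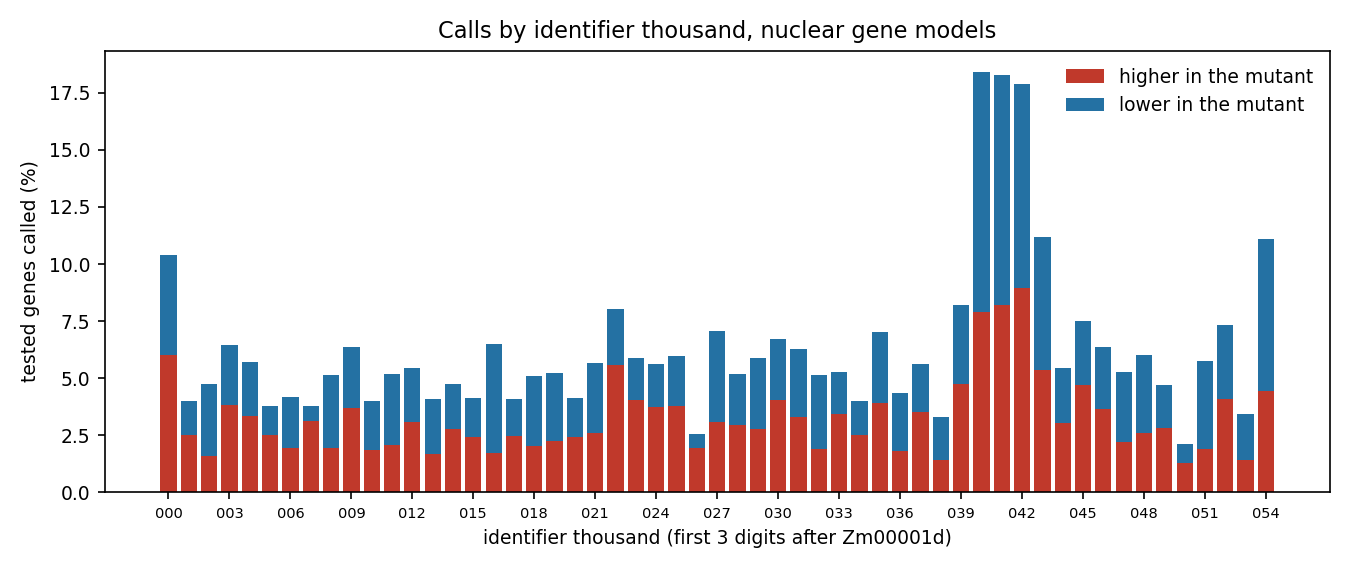
Share of tested nuclear gene models called higher and called lower in the mutant, in percent, grouped by the first 3 digits of the identifier. The bars for 040 to 042 (18.2% together) stand above all others.

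Features named ENSRNA, a class of identifier for noncoding RNA, were called more often and with less regular values. Of 222 tested, 19 were higher and 8 lower (12.2%), and the called features had a median absolute log2 change of 3.53. Groups did not overlap for 9 of those higher and 0 of those lower, and they overlapped for 18, beside 5 of 1077 called nuclear genes. The counts moved with the fit. DESeq2 gave 7 higher and 3 lower, and with no low-count filter edgeR gave 46 and 51. Leaving out wild type replicate 1 raised the lower calls to 13, and leaving out wild type replicate 3 raised them to 17. ENSRNA049478188 stood at 4.90, 5.14 and 0.234 CPM in wild type and at 54.3, 44.8 and 71.4 CPM in the mutant. All mutant libraries were high, with a log2 fold change of 4.01 ± 0.30 (edgeR adjusted p = 3.24e-08). ENSRNA049478252 had the same counts in 5 of the 6 libraries, so the pair cannot be read as separate measurements. Such repeats were common. Joined where their counts differed in sum by at most 10% of the larger total, a limit set after values were seen, the 27 called features formed 17 groups, and the 9 with groups of libraries that did not overlap formed 5. In the 12 JA experiment libraries ENSRNA049478188 ran from 2.53 to 1618 CPM and was not called.

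Among organelle genes, 0 of 79 tested features passed in edgeR or in DESeq2. Without adjustment, edgeR's p was under 0.05 for 5 of 28 mitochondrial features, for 19 of 51 plastid features and for 4 of the 17 distinct sets of counts that the plastid features held, beside 19.2% of all features tested. All organelle features together took 0.147% to 0.172% of counts in wild type and 0.138% to 0.210% in the mutant, with overlapping groups. Of the 28 mitochondrial features 21 had positive fitted values, beside 8894 of 17841 over all features tested. Their median log2 fold change was 0.25. Some of these features held nearly the same counts, so the 21 are not separate measurements. The gene orf140-a had 143, 111 and 106 counts in wild type and 110, 101 and 147 in the mutant. Counts of orf101-a were 141, 111 and 105 against 111, 99 and 146, and edgeR's p was under 0.05 for both before adjustment. Those of atp1-a1 (12, 15 and 8 against 7, 16 and 10) and orf105-d (12, 14 and 8 against 7, 15 and 10) were close. The gene rps1, for a protein of the small ribosomal subunit, stood at 78.9, 84.9 and 68.3 CPM in wild type and at 76.9, 101 and 97.9 CPM in the mutant (log2 fold change 0.25 ± 0.09, edgeR adjusted p = 0.109). The groups overlapped. The gene ccmFN, for cytochrome c maturation, stood at 13.8, 14.6 and 12.9 CPM in wild type and 15.8, 19.5 and 20.4 CPM in the mutant (0.44 ± 0.15, edgeR adjusted p = 0.106), without overlap. The large ribosomal RNA rrn26 stood at 492, 530 and 444 CPM in wild type and at 460, 538 and 529 CPM in the mutant (0.06 ± 0.06, edgeR adjusted p = 0.673). The oxidase subunit gene cox1 was near the lower limit of the test, at 2.23 to 4.73 CPM in wild type and 2.26 to 3.06 CPM in the mutant.

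The 51 plastid features rested on few reads. They held only 17 distinct sets of counts, since 18 features shared the counts 14, 9 and 14 in wild type and 11, 21 and 12 in the mutant, and 14 others shared 19, 11 and 18 against 15, 30 and 20. Counted by feature, 45 of 51 had a positive fitted value, and counted by distinct set of counts 11 of 17 did, beside 8894 of 17841 features tested. Some of the 17 sets also differed by few counts, so they are not all separate measurements. A set shared by 3 features had 13, 9 and 14 against 11, 21 and 12. Another 3 features shared 20, 11 and 18 against 15, 30 and 20. The median log2 fold change was 0.61 by feature and 0.50 by distinct set. The transfer RNA gene trnK went the other way, from 10.9 to 14.2 CPM in wild type and from 6.79 to 9.43 CPM in the mutant (-0.51 ± 0.20, edgeR adjusted p = 0.151).

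**Figure D5:**
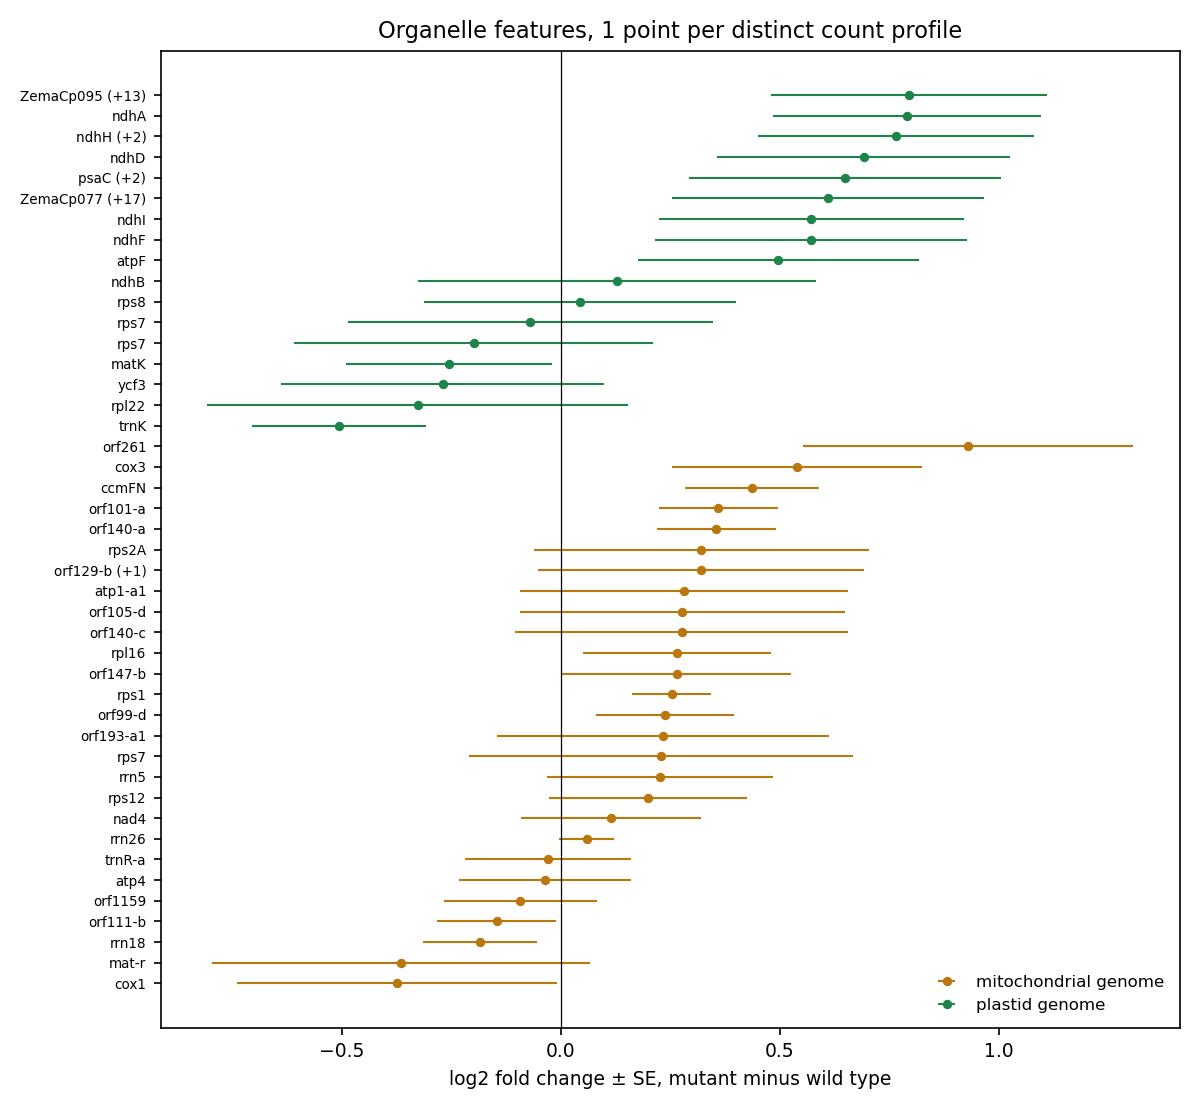
Log2 fold change (mutant minus wild type) with its SE for the tested organelle features, 1 row per distinct set of counts, with the number of other features that share it in brackets. Of the 17 plastid rows 11 are positive and of the 27 mitochondrial rows 20 are, and none of the 79 features is called. Some rows of either genome differ by few counts, so the rows are not all separate measurements.

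MicroRNA precursors were at the limit of detection. Of 154 listed, 42 had a count and 36 of these had under 10 counts over the 6 libraries. Of the 3 tested, edgeR called 0, and 1 had p under 0.05 before adjustment. MIR167g had 8, 12 and 9 counts in wild type and 16, 13 and 16 in the mutant (log2 fold change 0.99 ± 0.34, edgeR adjusted p = 0.0893).

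The JA experiment gave a second set of 12 libraries with genotype labels, but those labels disagreed. For 6 libraries the genotype in the title differed from the genotype field, and by that field all 6 mutant libraries were JA-treated and all 6 wild type libraries untreated. A contrast by the genotype field is thus also a contrast by JA, and genotype and JA cannot be told apart in it. By the field 945 of 11265 features were called (8.39%), and by title 582 (5.17%).

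Among 10886 features tested in both experiments, 888 were called in the genotype experiment. Of these, 170 were called in the same direction in the field contrast and 25 in the opposite one. The 170 were 19.1% of the calls in the genotype experiment and 19.1% of the 892 in the JA experiment. Over all 11265 features tested in the JA experiment the field contrast called 8.39%, counting both directions. By title 50 were called in the same direction and 26 in the opposite one. The 50 were 5.63% of the 888 and 9.54% of the 524 calls by title. Over all 11265 features the title contrast called 5.17%, again counting both directions.

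Zm00001d042019 rose in both. It stood at 53.5, 62.3 and 53.1 CPM in wild type and at 213, 205 and 218 CPM in the mutant (log2 fold change 1.91 ± 0.06, edgeR adjusted p = 1.68e-13). In the JA experiment its mean was 66.7 ± 4.58 CPM (SD, n = 3) in titled wild type untreated, 84.5 ± 10.2 in titled wild type treated, 102 ± 8.32 in titled mutant untreated and 159 ± 13.1 in titled mutant treated. The field contrast gave 0.49 ± 0.09 and the title contrast 0.76 (edgeR adjusted p = 0.00232 and 6.17e-05).

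Zm00001d014888 fell in both. It stood at 73.5, 72.4 and 78.2 CPM in wild type and at 22.6, 23.1 and 15.3 CPM in the mutant (-1.89 ± 0.12, edgeR adjusted p = 3.17e-09). In the JA experiment the means in the same order of groups were 169 ± 8.75, 77.4 ± 0.876, 125 ± 11.4 and 41.6 ± 2.09 CPM, so it was lower under JA at either title and lower in titled mutant at either treatment. The field contrast gave -1.35 ± 0.08 and the title contrast -0.66 (edgeR adjusted p = 2.12e-07 and 7.54e-05). Zm00001d042263 stood at 51.2, 50.6 and 48.0 CPM in wild type and 14.9, 16.9 and 16.1 CPM in the mutant (-1.64 ± 0.11, edgeR adjusted p = 8.94e-09). Its field contrast was -1.12 ± 0.14 (edgeR adjusted p = 0.000151), and its title contrast of -0.24 did not pass (adjusted p = 0.392). Zm00001d020949 had a field contrast of 3.01 ± 0.51 (edgeR adjusted p = 0.00184) and a title contrast of 0.29 (adjusted p = 0.843).

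The abundant genes differed in how far their direction turned on the label. Zm00001d019156 had a field contrast of -0.30 and a title contrast of 0.60 (edgeR adjusted p = 7.54e-05 and 8.49e-08). Zm00001d048849 had -0.34 by field and 0.59 by title (edgeR adjusted p = 2.15e-05 and 6.07e-08). Both were lower in the mutant in the genotype experiment. Zm00001d030855 was higher by either label, at 0.41 by field and 0.44 by title (edgeR adjusted p = 0.000383 and 0.000169). Zm00001d041822 had a mean of 2666 CPM in wild type and 3412 CPM in the mutant of the genotype experiment. In the JA experiment it did not pass the low-count filter, so its level differed greatly between the experiments. The cause was not tested, and its effect could not be compared by either label.

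A fit over the 18 libraries, added after values were seen, tested whether the effect in the genotype experiment differed from the field contrast. It called 292 of 15298 features (1.91%). In the span 040 to 042 the difference was called for 62 of 748 genes (8.29%), and outside it for 224 of 13743 (1.63%). Among genes already called in the genotype experiment these were 42 of 153 (27.5%) and 64 of 876 (7.31%). The span and these genes were picked by calls in the genotype experiment, whose effect enters the difference. Called genes also had larger effects in the span, with a median of 0.75 against 0.42. The shares are therefore given as a description and are no separate evidence about the span. The difference was not called for Zm00001d020949, Zm00001d014888 or Zm00001d042263.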

How the data were processed

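Each library's deposited file holds raw counts for 46430 features. Trimmomatic 0.39 and HISAT2 2.2.1 are the tools listed in the submitters' processing notes. The sources used here do not give the counter, build, annotation, strand use or treatment of duplicates, so overlapping genes and near-identical copies are uncertain.

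The 6 genotype libraries were fitted alone with edgeR 4.0.16 (R 4.3.3, limma 3.58.1) on the counts as deposited, with TMM scaling, filterByExpr at a minimum count of 10, 2-sided quasi-likelihood tests and a threshold of 0.05 on the Benjamini-Hochberg adjusted p over all features tested. The 12 JA libraries were fitted as 4 groups. SE was computed as |log2 fold change| / sqrt(F). CPM was computed within each fit from TMM-scaled library sizes. Alternatives included DESeq2 1.42.0, RLE scaling, other filters, thinning, a replicate block and leaving out each library.

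The naming rule took called features with at least 10 CPM in 1 group and groups that did not overlap, by log2 fold change, at most 2 in each direction where no name was given. The abundant genes, the genes called in both experiments, the organelle and microRNA examples and the identifier span were chosen after values were seen. Members and lists were chosen with earlier results of these data known. The 21 lists had 0 matched nuclear members, so no list is reported. Chi-square per degree of freedom was 1.76 to 2.80 within groups, so no library was a copy of another.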

Additional observations from a re-analysis of the deposited data

Results flagged for a closer look

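For 4 genes of the identifier span 040 to 042, the mutant effect differed between the genotype experiment and the JA experiment grouped by its genotype field, in a test of the difference itself over 18 libraries. The genotype field is confounded with JA there, so genotype and JA cannot be told apart in the difference. Zm00001d041436 rose in the genotype experiment and had 0.11 in the field contrast, a difference of 1.87 on the log2 scale (edgeR adjusted p = 0.00101). Zm00001d041300 fell in the genotype experiment and had -0.28 in the field contrast, a difference of -2.27 (edgeR adjusted p = 2.47e-05). Zm00001d040153 fell in the genotype experiment and had 0.07 in the field contrast, a difference of -2.18 (edgeR adjusted p = 0.00142). Zm00001d042019 was called higher in both, with a difference of 1.40 (edgeR adjusted p = 6.09e-06). Zm00001d042263 and Zm00001d041822 also lie in the span, and for them the difference was not called. It was -0.54 and -0.30 (edgeR adjusted p = 0.161 and 0.791). By title the contrasts of Zm00001d041436, Zm00001d041300 and Zm00001d040153 were -0.07, 0.27 and 0.07. None of these passed (edgeR adjusted p = 0.877, 0.322 and 0.901), and the difference from the title contrast was not tested. Levels, scaled within each fit, also differed between the experiments. Means over the 4 JA groups ran from 24.6 to 30.9 CPM for Zm00001d041436, against 3.36 in wild type and 13.6 in the mutant. For Zm00001d041300 they ran from 30.0 to 44.6 CPM, against 16.7 and 2.81. Those of Zm00001d040153 ran from 16.7 to 19.2 CPM, against 15.3 and 3.59. The 4 genes were named for the size of their effect in the genotype experiment, and that effect enters the difference.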

How the results depend on the processing

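The log2 fold changes of the named nuclear and ENSRNA features in the genotype experiment kept their sign under each alternative run that held them. Those of the organelle and microRNA examples were not followed under the alternatives. In the JA experiment Zm00001d019156 and Zm00001d048849 changed sign between the genotype field and the title. DESeq2 called 301 higher and 236 lower, of which 533 were called in the same direction by edgeR. Leaving out 1 library gave 368 to 448 higher and 331 to 393 lower. The fewest higher calls (368, with 334 lower) came without wild type replicate 1, and 370 and 331 came without mutant replicate 2. Thinning to the smallest library gave 419 and 393, no filter 657 and 772 (more lower than higher), and leaving out the ENSRNA features 688 and 661. ENSRNA calls were 13 and 2 with the filter of 10 CPM and 17 and 16 with the replicate block. Calls among the 50 most abundant were 11 and 12 with no filter and 11 and 10 without ENSRNA features. Organelle calls were 0, except 3 with no filter, 1 without ENSRNA features and up to 2 with 1 library left out. In the JA experiment the field contrast gave 750 to 863 calls, and 134 to 151 shared calls in the same direction, with 1 library left out. Grouping by title gave 582 calls and 50 shared. The cause of these changes was not tested. The replicate numbers gave no sign of pairing. Same-numbered libraries had correlations of 0.022, 0.0008 and -0.073 in their deviations from the group means. Other pairings ran from -0.193 (wild type 2 with mutant 1) to 0.225 (wild type 2 with mutant 3). With the replicate block the calls were 491 higher and 458 lower, and 840 in the JA experiment with 158 shared. Alternatives chosen after seeing the data were those on shared count profiles (594 and 532), on the identifier span (449 and 414 without it) and on ENSRNA features. The alternatives planned for gene lists gave no value, because the lists had 0 matched members.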
